A study of Mus musculus with 6 samples.

Results

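Store-operated calcium entry is the route by which cells without electrical excitability, microglia among them, refill and prolong a calcium signal. A receptor at the cell surface makes inositol trisphosphate (IP3), IP3 receptors let calcium out of the endoplasmic reticulum (ER), STIM proteins sense the loss of ER calcium and open Orai channels in the plasma membrane, and SERCA pumps return calcium to the ER. In microglia this route is known to follow stimulation of purinergic receptors and to feed calcium into calcineurin and NFAT factors. The genes described here are the 3 Orai channel genes, the 2 STIM sensor genes, the 3 IP3 receptor genes and the SERCA pump genes Atp2a2 and Atp2a3, which make 10 of the 15912 genes in the deposited table. They were chosen by name, with the values of BODIPY-high against BODIPY-low libraries already known, so the differences between these gates are given as a description of the libraries and are not independent evidence.

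The RNA came from hippocampal microglia of male C57BL/6 mice, 3 months old, which all received lipopolysaccharide (LPS, which comes from bacterial outer membranes and triggers innate immune responses) at 1 mg/kg into the peritoneum for 4 days and were perfused 24 h after the last dose. Cells that were alive, CD11b-positive and low for CD45 were sorted, about 10000 per sample, and staining with BODIPY, which marks neutral lipids, divided them into a lipid-droplet-rich gate (BODIPY-high) and a droplet-poor gate (BODIPY-low). Each gate had 3 libraries, each made from the joined hippocampi of 2 mice. Mice without LPS were not analysed here, so the gates differ by droplet load among cells that had all been exposed to LPS.

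The recovered depth was 37633089 to 39220494 reads in BODIPY-high libraries and 34899413 to 36518323 reads in BODIPY-low libraries. All 10 fixed markers of microglia were present, and they summed to 1874128 to 2571040 normalized counts in BODIPY-high libraries and 2414887 to 2820876 in BODIPY-low libraries. Markers of other cells differed between the gates. The 10 choroid plexus markers summed to 40094 to 52918 normalized counts in BODIPY-high libraries and 309 to 2331 in BODIPY-low libraries, and 10 of 10 rose. The 12 markers of border-associated macrophages summed to 44117, 49246 and 123807 in BODIPY-high libraries 1, 2 and 3, and to 23573, 17576 and 24530 in BODIPY-low libraries 1, 2 and 3, and 9 of 12 rose. Of the other lists, 4 of 8 tested astrocyte markers, 3 of 9 of the oligodendrocyte lineage, 1 of 3 mural and 1 of 4 erythroid and platelet markers rose, and none of the 5 neuronal, 9 endothelial, 9 monocyte and neutrophil or 2 lymphocyte markers passed the limma test. Over all genes tested, 2.03% were called higher. Some markers that rose met the filter on low values only through the BODIPY-high gate, so the filter fixed their direction. Among these, named after their values were seen, were Aqp1 and Cldn2 of the choroid plexus list, Atp1b2 of the astrocyte list, and Pdgfra and Olig1 of the oligodendrocyte lineage list. BODIPY-high library 3 stood apart from the other BODIPY-high libraries by its border-associated macrophage sum, and values without it stand beside those members that it moved.

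Orai1 encodes the pore subunit of the main store-operated channel, and it was the member with the clearest gap between gates. The gene lies at chr5:123015074-123030456 on the plus strand (GRCm38, GENCODE M21), and 0.3% of its exon bases are shared with an antisense gene. Orai1 had 7032, 6662 and 7114 normalized counts in BODIPY-high libraries 1, 2 and 3, against 9472, 9201 and 8959 in BODIPY-low libraries 1, 2 and 3. The gates did not overlap: the highest BODIPY-high library lay below the lowest BODIPY-low library. The means were 6936 ± 241 in BODIPY-high libraries and 9211 ± 256 in BODIPY-low libraries (SD, n = 3 each), so the BODIPY-high mean was 75.3% of the BODIPY-low mean. Within each library number the log2 difference was -0.43, -0.47 and -0.33 for numbers 1, 2 and 3.

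In the limma fit across 12767 genes, Orai1 had a log2 difference of -0.41 ± 0.08 (SE, 95% interval -0.59 to -0.23) and an adjusted p of 0.0409, given here as a description. It was 1 of only 3 genes that this fit called lower in BODIPY-high libraries, which is 0.0235% of the genes tested, against 2.03% called higher. The other two were Kctd12 and Fam212a, named here after their values were seen. With the replicate number as a block the log2 difference was the same and the adjusted p 0.00981, among 0.462% of genes called lower and 4.37% called higher. The call was missed with edgeR on recovered reads (adjusted p = 0.0547) and after upper quartile scaling (limma adjusted p = 0.0975), and leaving out any 1 of the 6 libraries ended it, with adjusted p of 0.0918 to 0.194 and log2 differences of -0.43 to -0.38. Of all tested genes, 5.95% had gates that did not overlap with BODIPY-high lower, and Orai1 was the 1 member of 10 among them. Since the gene was listed with this contrast known, nothing further is read from these counts.

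**Figure D1:**
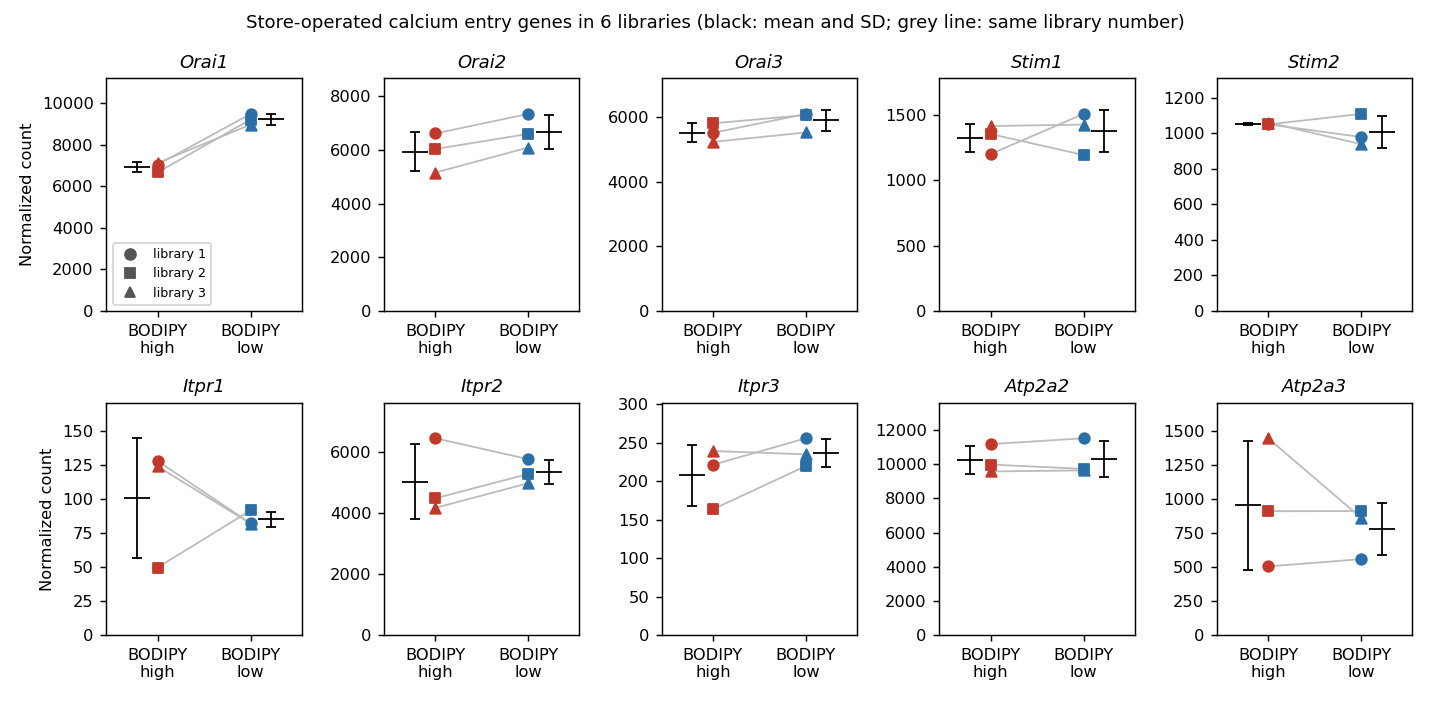
Normalized counts of the 10 genes in each library, with BODIPY-high at the left and BODIPY-low at the right of each panel; marker shapes give the library number, grey lines join equal numbers, and black bars give the mean and SD of 3 libraries. Orai1 is the panel whose gates do not overlap, with 6662 to 7114 in BODIPY-high libraries and 8959 to 9472 in BODIPY-low libraries, while Itpr1 and Atp2a3 spread most within the BODIPY-high gate.

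The microglial markers lay on the same side as Orai1. All 10 had a negative log2 difference, from -0.45 to -0.05 with a median of -0.26, and none passed limma; after upper quartile scaling 8 of 10 were negative, and Csf1r and Fcrls were not. Set against the sum of these 10 markers, Orai1 came to 0.274%, 0.281% and 0.380% in BODIPY-high libraries 1, 2 and 3, and to 0.336%, 0.369% and 0.371% in BODIPY-low libraries 1, 2 and 3. On that scale the gates overlapped, because BODIPY-high library 3, which had the lowest microglial sum, lay above every BODIPY-low library, and the mean log2 difference was -0.22. In bulk samples such as these, fewer cells of a type and less RNA per cell cannot be told apart. Without BODIPY-high library 3 the log2 difference of Orai1 in normalized counts was -0.43. The part of the microglial share, or of other cells, in the Orai1 difference was not tested.

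Orai2 and Orai3 encode the homologous channel subunits, which assemble alone or with Orai1. Orai2 lies on the same chromosome as Orai1, at chr5:136147459-136170713 on the minus strand, and Orai3 at chr7:127769815-127775150 on the plus strand. Orai2 had 6611, 6030 and 5153 normalized counts in BODIPY-high libraries 1, 2 and 3, against 7339, 6595 and 6088 in BODIPY-low libraries 1, 2 and 3. In both gates library 1 was highest and library 3 lowest, and the gates overlapped although BODIPY-high was lower within every library number (log2 difference -0.17, 95% interval -0.44 to 0.09). Leaving out 1 library gave -0.26 (without BODIPY-high library 1) to -0.08 (without BODIPY-high library 3). Orai3 had 5515, 5809 and 5235 in BODIPY-high libraries 1, 2 and 3, against 6101, 6067 and 5527 in BODIPY-low libraries 1, 2 and 3. It was also lower within each number, by less than Orai1, with a log2 difference of -0.10 (95% interval -0.30 to 0.11) and -0.06 without BODIPY-high library 3. Neither passed limma, and the adjusted p were 0.716 for Orai2 and 0.828 for Orai3. With the replicate number as a block, Orai2 kept its log2 difference with an SE of 0.07. The limma adjusted p were then 0.246 for Orai2 and 0.556 for Orai3.

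Corrected for exon length, the 3 channel genes summed to 6728, 6608 and 6393 normalized counts per kilobase of exon in BODIPY-high libraries 1, 2 and 3, and to 8184, 7928 and 7487 in BODIPY-low libraries 1, 2 and 3. Orai1 made up 45.5%, 43.9% and 48.5% of this sum in BODIPY-high libraries 1, 2 and 3, and 50.4%, 50.6% and 52.1% in BODIPY-low libraries 1, 2 and 3. Orai3 held 38.2 to 41.1% in BODIPY-high libraries and 34.5 to 35.7% in BODIPY-low libraries, and Orai2 13.3 to 16.2% and 13.4 to 14.8%. These shares do not depend on how a library was scaled. The Orai1 share was lower in every BODIPY-high library than in any BODIPY-low library, and that of Orai2 overlapped between gates. The difference of the Orai1 change from that of Orai2 or Orai3 was not tested.

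**Figure D2:**
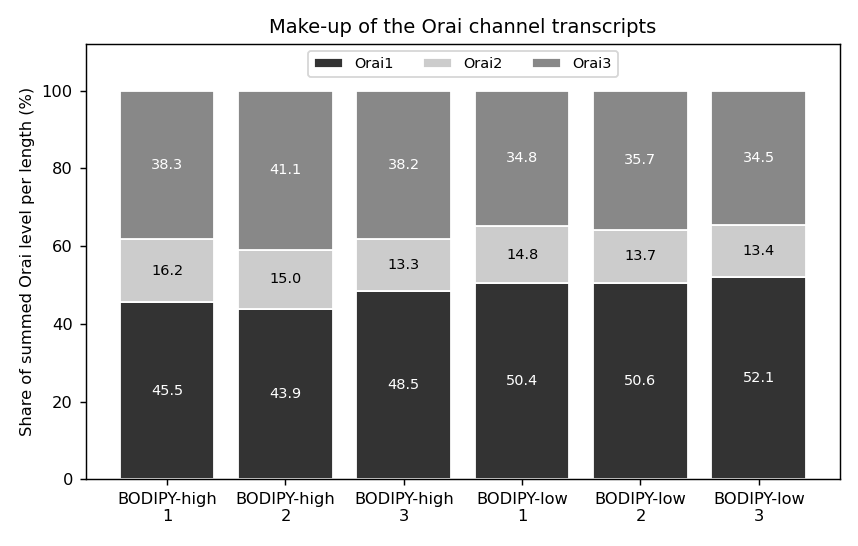
Share of each Orai gene in the summed Orai level (percent of normalized counts per kilobase of exon) in each library, with BODIPY-high libraries at the left and BODIPY-low libraries at the right. The Orai1 segment is 43.9 to 48.5% in BODIPY-high libraries and 50.4 to 52.1% in BODIPY-low libraries.

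The bases ahead of the 3 Orai genes are shown because Orai1 is the member on which the comparison turns and the other two are its closest relatives. They are the 250 bases before the start site in RefSeq on build GRCm38.p6, 5′ to 3′ on the strand of the gene, with GC boxes (GGGCGG or its reverse complement CCGCCC, the site known for Sp1) in capitals. Orai1 lies on the plus strand (chr5:123014824-123015073), Orai2 on the minus strand (chr5:136170657-136170906) and Orai3 on the plus strand (chr7:127769565-127769814).
Orai1: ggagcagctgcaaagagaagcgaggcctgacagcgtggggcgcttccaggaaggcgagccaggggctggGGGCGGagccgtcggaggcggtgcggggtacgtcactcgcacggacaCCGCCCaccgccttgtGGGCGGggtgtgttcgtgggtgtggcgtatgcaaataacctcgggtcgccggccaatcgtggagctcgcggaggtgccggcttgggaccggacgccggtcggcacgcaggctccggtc
Orai2: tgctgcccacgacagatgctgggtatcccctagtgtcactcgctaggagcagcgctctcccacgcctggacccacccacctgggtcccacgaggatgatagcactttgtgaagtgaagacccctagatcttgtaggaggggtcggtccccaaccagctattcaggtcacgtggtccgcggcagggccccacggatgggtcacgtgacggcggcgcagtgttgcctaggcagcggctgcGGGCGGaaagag
Orai3: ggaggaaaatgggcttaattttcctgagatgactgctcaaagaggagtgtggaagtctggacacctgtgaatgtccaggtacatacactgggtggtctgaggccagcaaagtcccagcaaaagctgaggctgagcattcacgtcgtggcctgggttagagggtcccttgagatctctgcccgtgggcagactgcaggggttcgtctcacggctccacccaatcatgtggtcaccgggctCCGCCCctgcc

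The Orai1 window held 3 GC boxes, and those of Orai2 and Orai3 held 1 each; 32.7% of 32817 RefSeq windows of this length hold at least 1. The Orai1 window was also richer in bases G and C (70.8%, with 30 CG pairs) than those of Orai2 (63.6%, 17 pairs) and Orai3 (57.2%, 7 pairs), beside a median of 52.4% and 6 pairs over all windows. GGAAA on either strand, the core that NFAT factors are known to bind, had 0 matches for Orai1, 1 for Orai2 and 2 for Orai3, and 55.6% of windows hold it. The Orai2 match overlaps its GC box. Both lie near the end of the window, inside the Orai2 gene as GENCODE M21 places it, with its start at 136170713. None of the 3 held TATAAA on either strand, which 12.4% of windows do. Of the 10 members 8 had a window, and the other 5 of these held 1 to 8 GC boxes. The windows of Stim1 (78.4%), Stim2 (74.8%), Itpr2 (74.4%) and Itpr3 (72%) were richer in G and C than that of Orai1. The window of Atp2a3 (66.8%) was poorer. A match is a run of letters and does not show that a factor binds there.

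Stim1 and Stim2, the calcium sensors of the ER membrane, showed no separation of the gates. They lie at chr7:102267806-102437319 and chr5:53998499-54121057, both on the plus strand. Stim1 had 1201, 1355 and 1416 normalized counts in BODIPY-high libraries 1, 2 and 3, against 1509, 1194 and 1427 in BODIPY-low libraries 1, 2 and 3. The log2 difference was -0.05 with a 95% interval of -0.35 to 0.24, and leaving out 1 library gave -0.15 (without BODIPY-low library 2) to 0.02 (without BODIPY-low library 1). Without BODIPY-high library 3 the log2 difference of Stim1 was -0.10. Stim2, which responds to smaller losses of ER calcium than Stim1 does, had 1050.1, 1049.9 and 1060.3 in BODIPY-high libraries 1, 2 and 3, against 979, 1109 and 938 in BODIPY-low libraries 1, 2 and 3. The 3 BODIPY-high values lay within the range of the BODIPY-low values, and the log2 difference was 0.07 (95% interval -0.20 to 0.34), with 0.02 (without BODIPY-low library 3) to 0.14 (without BODIPY-low library 2) when 1 library was left out. The adjusted p were 0.948 for Stim1 and 0.921 for Stim2.

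Itpr2 was the main IP3 receptor transcript, and the levels of all 3 receptor genes overlapped between gates. Itpr2 lies at chr6:146108299-146502223 on the minus strand. It had 6462, 4492 and 4179 normalized counts in BODIPY-high libraries 1, 2 and 3, against 5778, 5292 and 4988 in BODIPY-low libraries 1, 2 and 3. Library 1 was highest and library 3 lowest in both gates, as for Orai2, and the log2 difference of -0.11 had a 95% interval of -0.47 to 0.25. With BODIPY-high library 1 left out it was -0.30, and with BODIPY-high library 3 left out it was 0.01. Per kilobase of exon Itpr2 made up 89.5 to 93.6% of the IP3 receptor sum in BODIPY-high libraries and 91.7 to 92.4% in BODIPY-low libraries.

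Itpr3 (chr17:27057304-27122223, plus strand) had 221, 164 and 239 normalized counts in BODIPY-high libraries 1, 2 and 3, against 256, 220 and 235 in BODIPY-low libraries 1, 2 and 3, a log2 difference of -0.20 (95% interval -0.72 to 0.32). With BODIPY-high library 2 left out it was -0.04, and with BODIPY-high library 3 left out it was -0.31. Of its exon bases 2.6% are shared with other annotated genes, chiefly the antisense gene Itpr3os. The strand setting of the gene counts was not given, so the gene of origin of reads from such bases is uncertain. Itpr1, the receptor best known from Purkinje neurons, was the weakest member. It lies at chr6:108213096-108551109 on the plus strand, and 1.6% of its exon bases are shared with other annotated genes. It had 128, 49.9 and 124 normalized counts in BODIPY-high libraries 1, 2 and 3, against 82.3, 91.8 and 82.1 in BODIPY-low libraries 1, 2 and 3. BODIPY-high library 2 lay below and the other BODIPY-high libraries above all BODIPY-low values. These rest on 128, 50 and 135 reads in BODIPY-high libraries and 75, 89 and 78 in BODIPY-low libraries, and the exact 95% Poisson interval of the 50 reads was 37.1 to 65.9, which covers counting error only. Without BODIPY-high library 2 the log2 difference of Itpr1 was 0.56 instead of 0.12, and without BODIPY-high library 1 it was -0.11. It also turned negative, at -0.09, without BODIPY-high library 3.

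Atp2a2 encodes the housekeeping SERCA pump and had nearly equal levels in the gates. It lies at chr5:122453513-122502225 on the minus strand, with 1.4% of its exon bases shared. It had 11164, 9972 and 9570 normalized counts in BODIPY-high libraries 1, 2 and 3, against 11507, 9720 and 9633 in BODIPY-low libraries 1, 2 and 3. Equal numbers differed by at most 0.04 on the log2 scale, less than the difference between library 1 and the others within a gate, and the log2 difference of -0.01 had a 95% interval of -0.24 to 0.23. Leaving out 1 library gave -0.07 (without BODIPY-high library 1) to 0.08 (without BODIPY-low library 1). Without BODIPY-high library 3 the log2 difference of Atp2a2 was 0.04.

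Atp2a3 encodes the SERCA isoform known from blood cells and some epithelia, and it varied most between libraries of a gate. It lies at chr11:72961169-72993044 on the plus strand. It had 506, 909 and 1444 normalized counts in BODIPY-high libraries 1, 2 and 3, against 558, 911 and 860 in BODIPY-low libraries 1, 2 and 3. Numbers 1 and 2 were close between gates (log2 differences of -0.14 and -0.0020), and only number 3 was higher in BODIPY-high, by 0.75. Without BODIPY-high library 3 the overall log2 difference was -0.16 instead of 0.20, and without BODIPY-high library 1 it was 0.59. Beside these values, 9 markers of monocytes and neutrophils summed to 23875, 37205 and 96474 normalized counts in BODIPY-high libraries 1, 2 and 3, and to 20656, 60895 and 72104 in BODIPY-low libraries 1, 2 and 3. None of the 9 was at 0 in all libraries. The library highest in Atp2a3, BODIPY-high library 3, was also highest in that sum and in border-associated macrophage markers, and library 1 of each gate was lowest of its gate in both Atp2a3 and the monocyte and neutrophil sum. Within the BODIPY-high gate Atp2a3 and that sum had the same order, with library 2 between libraries 1 and 3. Within the BODIPY-low gate the order differed, since library 3 had a larger sum than library 2 but less Atp2a3. Library 2 of each gate had nearly the same Atp2a3, with sums of 37205 in BODIPY-high and 60895 in BODIPY-low. The sort took CD11b-positive cells low for CD45, a gate meant to leave out cells high for CD45, and the part of such cells in the Atp2a3 values was not tested.

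Per kilobase of exon the 10 genes spanned a wide range of levels. Averaged over the 6 libraries, Orai1 stood highest at 3518 ± 551 normalized counts per kilobase (SD, n = 6), followed by Orai3 at 2666 ± 160.1, Atp2a2 at 1687 ± 140 and Orai2 at 1037 ± 121. Itpr2 was next at 351 ± 56.7. The values of each of these 5 genes lay above those of the next gene in every library. Stim2 at 200.9 (range 182.8 to 215.98), Atp2a3 at 164 ± 63.5 and Stim1 at 130.2 ± 12.3 came after them, and neighbours among these 3 overlapped. Itpr3 at 24.7 ± 3.51 and Itpr1 at 5.08 ± 1.60 were last, each separate from its neighbour. Channel transcripts were therefore more abundant than sensor transcripts in every library of both gates, with sums of 6393 to 6728 against 320.4 to 343 per kilobase in BODIPY-high libraries and of 7487 to 8184 against 320.3 to 336 in BODIPY-low libraries. With the longest transcript as the length the first 5 kept their order and Stim1, at 310 ± 29.3, moved ahead of Stim2 and Atp2a3.

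**Figure D3:**
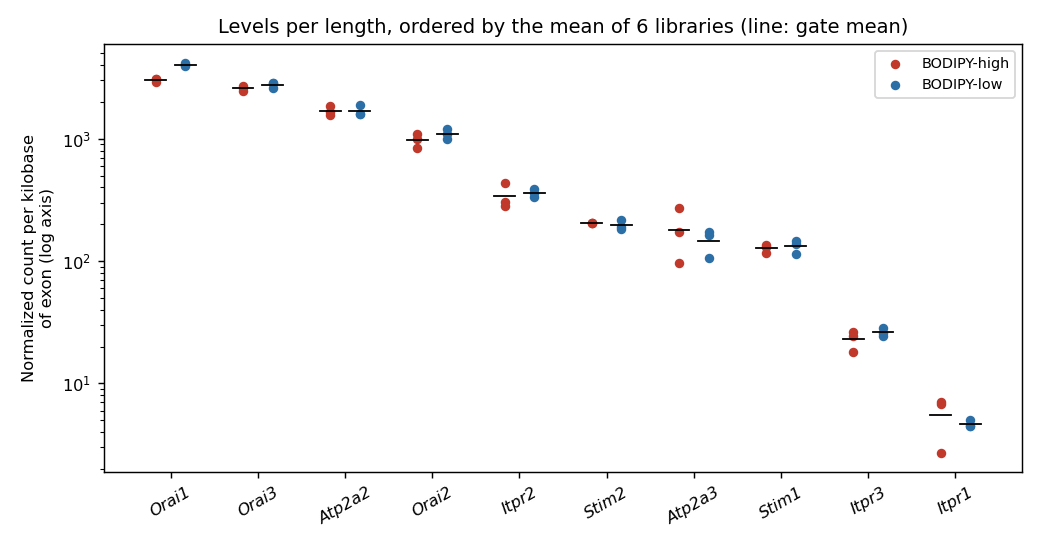
Normalized counts per kilobase of exon (log axis) for the 10 genes, ordered by the mean over 6 libraries; each dot is a library, BODIPY-high at the left and BODIPY-low at the right of each gene, and lines are gate means. Orai1 and Orai3 stand at the top, and Itpr1, at 2.72 to 6.99, at the bottom.

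Read together, 7 of the 10 members had a negative log2 difference and 3 a positive one, with a median of -0.07, beside 50.8% negative and a median of -0.0043 over all genes tested. This split depended on the scaling of libraries. With values rescaled to the upper quartile, 5 of the 10 were negative with a median of 0.02, beside 34.2% negative and a median of 0.09 over all genes. On that scale Orai1 had a log2 difference of -0.32 and missed the threshold (adjusted p = 0.0975 in the limma fit), Orai3 was at -0.0060, and Stim1 and Atp2a2 turned positive at 0.04 and 0.08. Orai1, Orai2, Orai3, Itpr2 and Itpr3 were negative under both scalings, Stim2, Itpr1 and Atp2a3 positive under both. No member was called higher by limma, edgeR or DESeq2. In limma on all 6 libraries without the replicate block, Orai1 was the 1 member with an unadjusted p under 0.05. Of all genes tested, 2.27% were lower and 8.03% higher at that level. With the block there were 2 such members, Orai1 and Orai2, beside 6.28% of all genes lower and 11.6% higher.

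**Figure D4:**
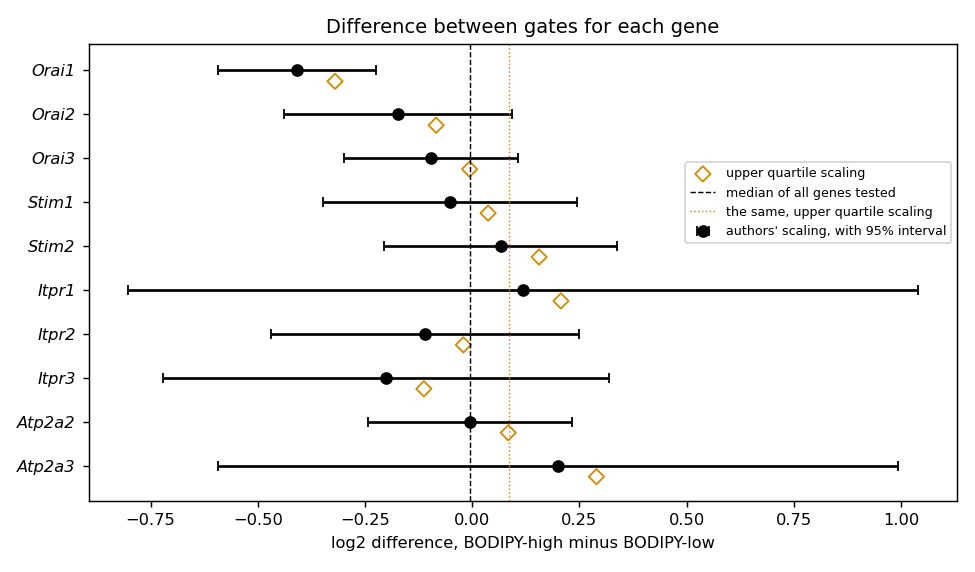
Log2 difference between gates (BODIPY-high minus BODIPY-low) for each gene: black dots with 95% intervals on the authors' scaling, open diamonds after upper quartile scaling, and vertical lines for the medians of all genes tested. In this fit, with gate alone in the model, the Orai1 interval, -0.59 to -0.23, lies wholly below 0, and those of the other 9 genes cross 0.

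The genes whose pattern over the 6 libraries was most like that of Orai1 were taken by their Pearson correlation of log2 values among 10190 named genes with a mean of at least 50 normalized counts. They were Kctd12 (r = 0.992), the interleukin 10 receptor gene Il10ra (0.990), the dehydrogenase gene Dhrs7b (0.989), the Toll-like receptor adaptor gene Myd88 (0.982) and the cytokine gene Il6 (0.980). With 6 libraries that share a gate difference, 31 genes had r over 0.95, so this is a description of likeness only. Il6 had 96.1, 99.7 and 94.7 normalized counts in BODIPY-high libraries 1, 2 and 3, against 173, 170.2 and 158 in BODIPY-low libraries 1, 2 and 3, and Myd88 4120.0 to 4327 against 4780.3 to 4840. Neither passed limma (adjusted p = 0.23 and 0.486). No other member reached such likeness: Itpr3 had an r of 0.62, Orai3 of 0.58 and Orai2 of 0.57 with Orai1.

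Around these members, 118 further genes of calcium handling were tested in 10 lists by role. Of these 118, 1 was called higher and 0 lower by limma, beside 2.03% and 0.0235% of all genes tested, and the median log2 difference was -0.01. At an unadjusted p under 0.05, 7 were higher and 5 lower, which is 5.93% and 4.24% of the 118, beside 8.03% and 2.27% of all genes tested, and edgeR and DESeq2 also called 0 lower. The gene called was Atp2b3, a plasma membrane calcium pump gene, with 12.01, 43.9 and 21.2 normalized counts in BODIPY-high libraries 1, 2 and 3, against 0 reads in all 3 BODIPY-low libraries (limma adjusted p = 0.0326). It met the filter on low values only through the BODIPY-high gate, so its direction was fixed by the filter and the call supports nothing further. Its BODIPY-high mean was 8.07 times a floor of 3 reads per BODIPY-low library, and 5.21 times without BODIPY-high library 2. The floor covers the BODIPY-low side only, and not the spread among BODIPY-high libraries. Choroid plexus markers were also higher in BODIPY-high libraries, though each had reads in the BODIPY-low gate. Pdgfra of the oligodendrocyte lineage list, named after its values were seen, had 29.0, 14.96 and 23.9 normalized counts in BODIPY-high libraries 1, 2 and 3, against 0 in all BODIPY-low libraries. Pdgfra too met the filter only through the BODIPY-high gate, so its direction was also fixed. The other genes of the oligodendrocyte lineage list had reads in the BODIPY-low gate, and 3 of the 9 tested in that list rose. The part of choroid plexus or oligodendrocyte lineage cells in the Atp2b3 value was not tested. Without any 1 of the libraries Atp2b3 no longer passed (adjusted p of 0.0501 to 0.234).

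With the replicate block Atp2b3 passed (adjusted p = 0.0267) and so did 2 more genes of these lists, Slc8a1 and Trpm2 (the second named after its values were seen), each the same way within every library number. The sodium-calcium exchanger gene Slc8a1, which extrudes calcium, fell, with 1996, 1549 and 1340 normalized counts in BODIPY-high libraries 1, 2 and 3, against 2753, 2352 and 1699 in BODIPY-low libraries 1, 2 and 3 (log2 difference -0.47, adjusted p = 0.0206 with the block and 0.464 without). Trpm2, a cation channel gated by ADP-ribose and oxidative stress, rose, with 2760, 2034 and 2611 in BODIPY-high libraries 1, 2 and 3, against 2124, 1461 and 2000.6 in BODIPY-low libraries 1, 2 and 3 (log2 difference 0.41, adjusted p = 0.0254 with the block and 0.436 without). In both genes the gates overlapped when the library numbers were ignored.

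Among 11 regulators of STIM and Orai, the median log2 difference was -0.07 and 0 passed limma, edgeR or DESeq2. In this list Tmem173, the gene of the DNA sensing adaptor STING, averaged 29885 ± 4706 normalized counts in BODIPY-high libraries and 36330 ± 3145 in BODIPY-low libraries (SD, n = 3 each; limma adjusted p = 0.506).

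Upstream, the 16 genes of IP3 production had a median of 0.03, with the G protein gene Gna15 at -0.18 and the phospholipase gene Plcg1 at 0.24. Of 14 genes listed as partners of IP3 receptors the median was 0.01, and Itpripl2 and Itpripl1 stood at -0.50 and -0.35. Whether the products of Itpripl2 and Itpripl1 act on IP3 receptors was not tested. The 9 other release and leak channels had a median of 0.08, with the ER leak channel gene Tmco1 at -0.22. In that list the lysosomal channel gene Mcoln2 was at 2.73 on the log2 scale, with 14.01, 21.9 and 75.4 normalized counts in BODIPY-high libraries 1, 2 and 3, against 0, 11.3 and 6.32 in BODIPY-low libraries 1, 2 and 3. None of these passed limma.

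The 12 calcium-binding proteins of the ER lumen and secretory pathway kept within -0.10 to 0.17, with the chaperone gene Hspa5 at 0.17 and the calcium-binding protein gene Nucb1 at 0.11. The 8 SERCA partners had a median of -0.11, with the third SERCA gene Atp2a1 at -0.75 on 24.2 ± 2.99 normalized counts in BODIPY-high libraries and 41.6 ± 7.86 in BODIPY-low libraries. The calcium-binding protein gene S100a1 was at 0.72. The remaining plasma membrane pump gene of smallest p, Atp2b2, was at 0.54. Mitochondrial uptake genes (12) had a median of 0.07, with Ccdc109b, the gene of a uniporter subunit that lowers its conductance, at 0.91 and the outer membrane channel gene Vdac2 at -0.12. None of these genes passed limma.

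The 12 other entry channels had a median of -0.02. Among them the voltage-gated channel gene Cacna1a averaged 80.5 ± 15.5 normalized counts in BODIPY-high libraries and 147 ± 12.2 in BODIPY-low libraries, a log2 difference of -0.87 (limma adjusted p = 0.265). The ATP-gated channel gene P2rx4, known from microglia, averaged 11136 ± 1150.2 in BODIPY-high libraries and 8900.3 ± 977 in BODIPY-low libraries (0.32, limma adjusted p = 0.325). Downstream, the 18 calmodulin, calcineurin and NFAT genes had a median of -0.05. Dyrk1a, a kinase that opposes NFAT, had the smallest p at a log2 difference of -0.32, and Rcan2, an inhibitor of calcineurin, was at 1.497 on 31.9 ± 15.0 normalized counts in BODIPY-high libraries and 12.1 ± 7.89 in BODIPY-low libraries.

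**Figure D5:**
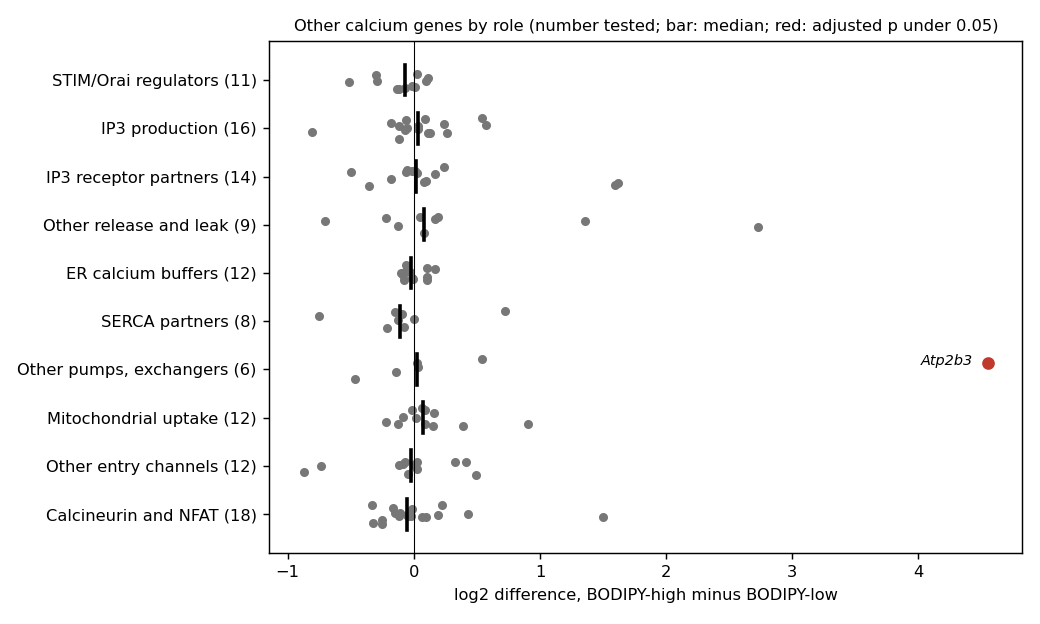
Log2 difference (BODIPY-high minus BODIPY-low) of 118 further calcium genes in 10 lists, 1 dot per gene, spread vertically for legibility, with black bars for list medians. The medians lie between -0.11 and 0.08, and Atp2b3, drawn in red, is the 1 gene past an adjusted p of 0.05.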

How the data were processed

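Per the series' design text, the authors mapped reads with STAR 2.5.3a (mouse build mm10), took gene counts from the same tool and ran DESeq2 at standard settings; the submitters' processing notes list mm9 and mm10, and the annotation and strand setting do not appear there (not given in the sources used here). As signal, the authors deposited normalized counts, meaning each gene's count over the size factor of its library. Every value was a whole multiple of 1 step per library (100% within 0.05 of a read), which gave back whole reads; a count of 0 allows up to 3 reads, worth 2.76 to 3.29 normalized counts. No 2 libraries agreed within sampling noise (chi-square per degree of freedom at least 29.1).

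Gates were compared with limma-trend (limma 3.58.1, R 4.3.3), two-sided, with gate alone in the model, on values transformed as log2(normalized count + 1), over all 12767 genes with at least 10 normalized counts in at least 3 of 6 libraries; all 10 members passed this filter. P-values were adjusted across these genes by Benjamini-Hochberg, and genes under 0.05 after adjustment were called. The pseudocount shrinks the fold change of low genes. Alternatives were edgeR 4.0.16 and DESeq2 1.42.0 on recovered reads, pseudocounts of 0.5 and 5, no filter, upper quartile scaling and each library left out. Equal library numbers were treated as pairs in a further fit, though the sample labels do not say what equal numbers share. Deviations from the gate means correlated at 0.354, 0.244 and 0.363 for equal numbers, and at -0.255 to -0.0951 for unequal numbers. The fit with the number as a block is printed where it changes a call. The labels do not say whether samples of a gate were separate pools, so p-values cover only the spread among these libraries, which may be technical. Lengths and overlaps come from GENCODE M21 and promoter windows from RefSeq, both GRCm38.

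Members, lists and the rule for named genes were chosen with earlier results of these data known. The rule took all members, of each calcium list every called gene and the 2 others of smallest p, and the 5 genes most like the member of largest difference. One gene that the rule took is not reported here.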

Additional observations from a re-analysis of the deposited data

How the results depend on the processing

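The log2 difference of Orai1 was negative under all 13 settings tried, from -0.43 to -0.32. It missed the threshold with edgeR on recovered reads (-0.42, adjusted p = 0.0547), with upper quartile scaling (-0.32, adjusted p = 0.0975) and without any 1 library (-0.43 to -0.38), and it passed with DESeq2 (adjusted p = 0.000376), the replicate block, both other pseudocounts and no filter; the adjusted p over these alternatives ran from 0.000376 to 0.194. Relative to the summed microglial markers, a setting chosen after seeing the data, it was -0.22. Of the other members Orai2, Orai3, Stim2 and Itpr3 kept their sign in 13 of 13 alternatives, Itpr2 in 12, Itpr1 and Atp2a3 in 11, Stim1 in 10 and Atp2a2 in 9. Over all genes, 259 were called higher and 3 lower. The counts were 464 and 32 with DESeq2, 558 and 59 with the replicate block, 222 and 1 with edgeR on recovered reads, and 300 and 1 with upper quartile scaling, and leaving out 1 library gave 15 (without BODIPY-high library 2) to 271 higher and 0 to 2 lower (217 to 368 lower at an unadjusted p under 0.05). Of the calcium list genes 1 was called higher and 0 lower. With the replicate block these were 2 and 1, and without any 1 library 0 were higher. Among members and named calcium genes the block changed no call but those of Slc8a1 and Trpm2. The cause of these shifts was not tested. With 3 libraries a gate, intervals of Itpr1, Itpr3 and Atp2a3 span more than 1 log2 unit.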
